A study of Mus musculus with 20 samples.

Results

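Trps1, Zfhx3 and Zfhx4 encode large zinc finger transcription factors, and the H3K27ac peaks at these 3 of 21938 protein-coding mouse genes were followed through the developing face. A peak was assigned to a gene when it overlapped the gene body, or when it lay within 100 kb of one of the gene's start sites and no other protein-coding start site was closer. The genes were chosen by the widths of their peaks, since peaks at Trps1 and Zfhx3 were the widest of some libraries, so widths are given here as a description and were not tested. By this assignment 179 of 144852 peaks belonged to the 3 genes, 33 to Trps1, 109 to Zfhx3 and 37 to Zfhx4.

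The peak lists came from H3K27ac ChIP-seq of face tissue freshly dissected from wild-type mouse embryos, with all cell types of each tissue mixed. At e11.5 the lateral and medial nasal plates and the maxillary and mandibular processes were profiled, and at e13.5 and e15.5 the nose with the same 2 processes of the jaw. Each of these 10 combinations of stage and tissue had 1 library, so the spread within a stage mixes tissue with technical differences, and the strain and the number of embryos pooled are not given for these libraries in the sources used here (FVB/NJ crosses are named for other mouse assays of the study). The lists held 6571 to 25941 peaks, and the number of reads behind each list is unknown.

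H3K27ac, acetylation of lysine on the tail of histone H3, marks active promoters and enhancers. A stretch of the mark that runs on for many kilobases beyond a start site is often found at genes that define the identity of a cell. TRPS1 is an atypical GATA-type zinc finger protein that represses transcription, acts in cartilage, hair and facial development, and its gene is mutated in human tricho-rhino-phalangeal syndrome, which changes the shape of the nose. ZFHX3 and ZFHX4 are paralogous proteins with several homeodomains and many zinc fingers, expressed in the developing nervous system among other tissues. In bulk tissue, fewer cells with the mark and less mark per cell cannot be told apart.

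A start-site peak of a gene is here a peak over any of its start sites or within 1 kb of one. Markers of facial mesenchyme carried start-site peaks in every library (5 or 6 of 6), while the erythroid and liver markers carried none. Detection was uneven for epithelium (0 to 4 of 5), endothelium (0 to 2 of 4), muscle (at most 1 of 3) and neuron markers (at most 1 of 4). None of these had a peak in the mandibular and maxillary libraries of e11.5 and e13.5. Hand2, a gene of the mandibular arch, had a start-site peak in 3 libraries: the e11.5 mandibular process, the e13.5 mandibular process and the e15.5 library labelled maxillary process. The start-site peak of Alx1, a gene of the frontonasal region, was 27199 bp wide in the e13.5 nose and 27009 bp in the e15.5 library labelled mandibular process. The names of the peaks inside the 3 lists of e15.5 also gave other regions than the labels did: nose in the library labelled mandibular process, md in that labelled maxillary process and mx in that labelled nose. The labels are used below, the main regional comparison leaves out e15.5, and stage comparisons use the 3 libraries as a set.

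The genes differ in length and in the layout of their start sites (mm10, GENCODE vM21). Trps1 lies on chromosome 15 at 50654752 to 50890463 on the minus strand, spans 235.712 kb and has 8 annotated transcripts, of which Trps1-202, with 6 exons, starts at 50889691. Zfhx3 lies on chromosome 8 at 107942644 to 108961630 on the plus strand. It spans 1018.99 kb, because its transcript Zfhx3-204 starts 772 kb upstream of Zfhx3-201, whose start at 108714644 is the reference used here. Zfhx4 lies on chromosome 3 at 5218526 to 5415857 on the plus strand, spans 197.332 kb, and its reference transcript Zfhx4-203 has 11 exons. By length Zfhx3 ranked 58, Trps1 791 and Zfhx4 1020 among the protein-coding genes, and a longer gene body collects more peaks by this assignment.

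At each gene, overlapping peaks of the 10 libraries merged into 1 region over the reference start site that was present in all 10, and into other regions that were not. A start-site peak, within 1 kb as defined above, was found in at least 1 library for 56% of the protein-coding genes, 12282 in number. It was found in all 10 libraries for the 3 genes and for 23.2% of those 12282. The RefSeq promoter table (GRCm38.p6, from 250 bases before to 50 after a start) matched 1 of the 3 genes, Zfhx3, and Trps1 and Zfhx4 were not matched. The Zfhx3 promoter is shown because it lies in the only Zfhx3 region with a peak in every library, at chr8:108714394-108714693 on the plus strand, in lower case with matches to the searched consensus letters in capitals.
Zfhx3 promoter: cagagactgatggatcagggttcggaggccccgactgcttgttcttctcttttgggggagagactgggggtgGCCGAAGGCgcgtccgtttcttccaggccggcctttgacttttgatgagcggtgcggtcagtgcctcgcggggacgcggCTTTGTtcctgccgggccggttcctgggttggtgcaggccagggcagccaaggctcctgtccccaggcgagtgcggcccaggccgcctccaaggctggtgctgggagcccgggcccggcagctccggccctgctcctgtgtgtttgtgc
Its base composition was 67.3% G or C with 21 CpG dinucleotides, against medians of 52.7% and 7 over the 32851 promoters of the table. The capitals are a match to the AP-2 letters (GCCNNNGGC, N being any base), starting at base 73 of the window, and a match to the SOX letters ACAAAG on the minus strand, starting at base 152. The AP-2 letters occurred in 16.6% and the SOX letters in 18.7% of all promoters. No match was found in this window for the other 11 consensus sequences, among them the GC box (GGGCGG) and the TATA box (TATAAA), present in 35.7% and 13.6% of promoters. The rest were the letters of GATA factors (AGATAA), homeobox (TAATTA), AP-1 (TGANTCA), TEAD (GGAATG), E-box (CAGCTG), Twist-type E-box (CATCTG), RUNX (TGTGGT), CRE (TGACGTCA) and NFI, which were found in 11.2%, 5.29%, 7.81%, 14.7%, 16.3%, 17.2%, 16.8%, 1.79% and 0.0365% of promoters.

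The distal regions of Zfhx3 present in the most libraries, 3 regions with 5 libraries each, are shown by the central 300 bases of the stretch their widest peaks had in common. They come from the plus strand of chromosome 8, read from GRCm38.p6 at chr8:107852054-107852353, chr8:108027880-108028179 and chr8:108759200-108759499. The first lies 864 to 860 kb before the reference start and outside the gene body, the second in intron 1 of Zfhx3-204, and the third in intron 1 of Zfhx3-201, 43.1 to 45.8 kb after its start.
Region before the gene: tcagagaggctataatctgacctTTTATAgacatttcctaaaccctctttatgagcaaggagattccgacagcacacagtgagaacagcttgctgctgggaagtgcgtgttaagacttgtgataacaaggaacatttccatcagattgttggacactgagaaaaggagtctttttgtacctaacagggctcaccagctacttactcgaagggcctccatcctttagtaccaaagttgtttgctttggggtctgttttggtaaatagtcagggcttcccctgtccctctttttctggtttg
Region in intron 1 of Zfhx3-204: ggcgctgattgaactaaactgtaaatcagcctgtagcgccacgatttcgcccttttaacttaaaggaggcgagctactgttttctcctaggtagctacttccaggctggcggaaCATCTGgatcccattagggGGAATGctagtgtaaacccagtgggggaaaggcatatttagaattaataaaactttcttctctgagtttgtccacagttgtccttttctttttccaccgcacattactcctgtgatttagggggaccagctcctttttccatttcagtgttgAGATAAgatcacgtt
Region in intron 1 of Zfhx3-201: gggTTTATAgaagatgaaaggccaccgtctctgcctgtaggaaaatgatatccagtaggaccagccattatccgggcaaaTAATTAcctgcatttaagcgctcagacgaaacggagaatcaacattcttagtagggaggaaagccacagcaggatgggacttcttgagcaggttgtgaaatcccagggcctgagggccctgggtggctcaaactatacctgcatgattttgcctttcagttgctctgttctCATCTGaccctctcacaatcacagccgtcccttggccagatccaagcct
Capitals in the first window mark 1 match to the TATA letters, read on the minus strand. In the second window they mark, from left to right, the Twist-type E-box, the TEAD letters and the GATA letters. In the third they mark the TATA letters, again on the minus strand, the homeobox letters and the Twist-type E-box. Of the central 300 bases of all 27439 distal regions, 25.6% held the Twist-type E-box, 18.97% the TEAD letters, 15.7% the TATA letters, 13.8% the GATA letters and 7.36% the homeobox letters. Both strands were searched, no matches overlapped in these windows, and such a match is a description of the letters only.

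Trps1 carried a short start-site domain at e11.5 and a long one at e15.5 and in 2 of the 3 libraries of e13.5. Its start-site region was chr15:50867548-50893739, 26192 bp in all, and covered exon 1 and the first part of intron 1, ending well before exon 2 at 42.7 kb from the start. At e11.5, peaks covered 4508 bp of it in the mandibular process, 9136 bp in the maxillary process, 5143 bp in the medial and 5961 bp in the lateral nasal plate. At e13.5 they covered 5653 bp in the mandibular process, 24986 bp in the maxillary process and 24941 bp in the nose. At e15.5 they covered 23903 bp, 22060 bp and 24672 bp in the libraries labelled mandibular process, maxillary process and nose. The e13.5 mandibular process was thus within the range of e11.5, and the 5 libraries with more than 22 kb were the other 2 of e13.5 and the 3 of e15.5, with no overlap between e11.5 and e15.5.

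**Figure D1:**
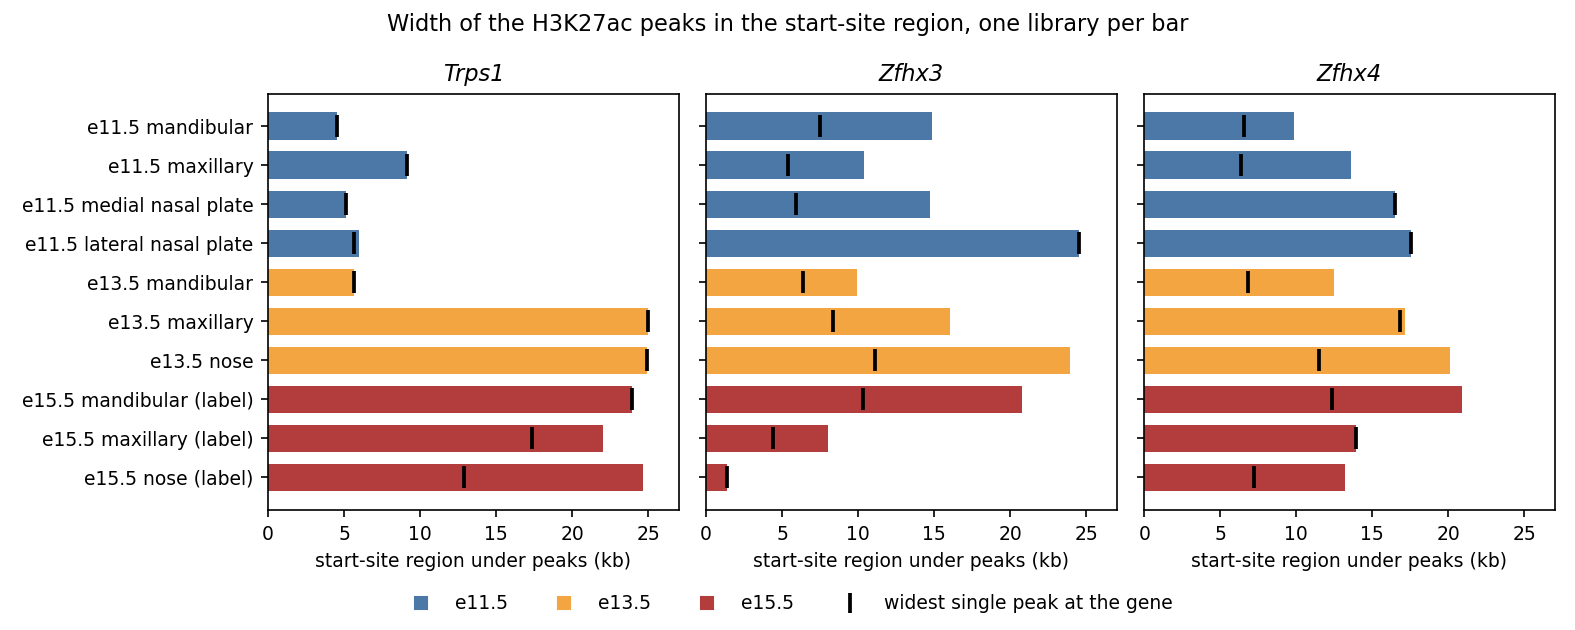
Bars give the kilobases of each gene's start-site region that lay under H3K27ac peaks in each of the 10 libraries, coloured by stage, and black ticks give the widest single peak at the gene. Trps1 bars stay under 10 kb in the e11.5 libraries and the e13.5 mandibular process and exceed 22 kb in the other 5, while Zfhx3 is shortest, at 1346 bp, in the e15.5 library labelled nose.

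The single Trps1 peak of the e13.5 maxillary process, 24986 bp, was the widest of the 10753 peaks in that library. The widest Trps1 peak ranked 3 of 25941 in the e13.5 nose and 2, 6 and 5 in the e15.5 libraries labelled mandibular process, maxillary process and nose. At e11.5 it ranked 268, 20, 382 and 211, and in the e13.5 mandibular process 166. These widths and ranks include the values on which Trps1 was picked. Start-site peaks wider in each library of e15.5 than in each of e11.5 were found for 7.69% of the genes with a start-site peak, and among the 3 genes for Trps1 only.

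The added length lay mostly downstream, within intron 1. In the 4 libraries of e11.5 the peak over the start site began 1.36 to 1.59 kb upstream, and in those of e15.5 it began 2.79 to 4.05 kb upstream. Downstream, the domain ended at 2.92 kb in the e11.5 mandibular process, at 7.74 kb in the maxillary process, at 3.78 kb in the medial nasal plate and at 3.90 kb in the e13.5 mandibular process. It ended at 22.1 kb in both the maxillary process and the nose of e13.5, and at 21.1, 21.8 and 21.6 kb in the e15.5 libraries in the order above. The lateral nasal plate had, besides its 5653 bp peak over the start, a separate piece whose far end lay at 20.043 kb. The start of the transcript Trps1-207, 6.89 kb into the gene, was under a peak in 6 libraries, the e11.5 maxillary process and the 5 with the long domain, and the start of Trps1-203, 62.2 kb in, in 0. The long domain was 1 unbroken peak in 3 libraries and was split into 2 pieces in the e15.5 library labelled maxillary process and 4 in that labelled nose.

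**Figure D2:**
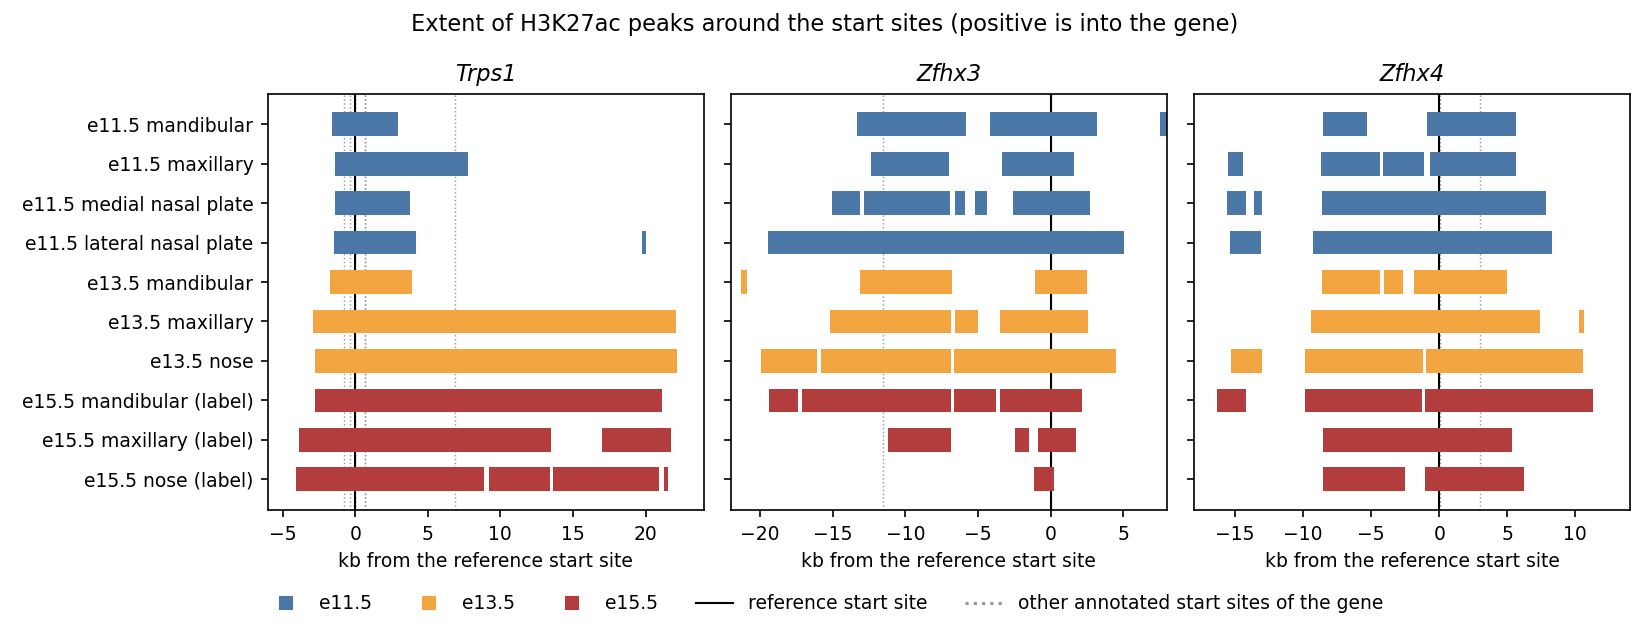
Each bar is 1 H3K27ac peak, drawn by its distance in kb from the reference start site (solid line; dotted lines are other start sites of the gene), with 1 row per library. The Trps1 domain reaches 21.1 to 22.1 kb into the gene in the last 5 libraries, and the Zfhx3 domain is 1 unbroken peak in the e11.5 lateral nasal plate and 1 peak of 1346 bp in the e15.5 library labelled nose.

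Long and short Trps1 domains were each found in both long and short peak lists. The lateral nasal plate, with 21689 peaks, had 5961 bp, and the e15.5 library labelled nose, with 7728 peaks, had 24672 bp. Short lists with short domains were the e11.5 maxillary process (6571 peaks, 9136 bp), the e13.5 mandibular process (6887 peaks, 5653 bp) and the e11.5 mandibular process (8402 peaks, 4508 bp). The part of list length in the domain lengths was not tested. When each library was cut to its 6571 peaks of lowest q-value, the covered length stayed the same in 8 of 10 libraries, falling to 5653 bp in the lateral nasal plate and to 17334 bp in the e15.5 library labelled maxillary process. With only peaks of −log10 q of at least 2, it fell to 13225 bp in the e15.5 library labelled nose, still above every value of e11.5. The start-site peaks of the bone markers Runx2, Sp7 and Col1a1 together measured 923 to 7107 bp at e11.5, with 1 or 2 of 3 present. They measured 13121 to 18193 bp at e13.5 and 22451 to 30271 bp at e15.5, with 2 or 3 present at either stage. Col1a1 measured 0 to 2207 bp at e11.5 and 19823 to 21573 bp at e15.5. Runx2 overlapped between these stages, at 0 to 4900 and 1468 to 6293 bp. Sp7 was at 0 throughout e11.5, and at e15.5 had a peak only in the library labelled maxillary process. The cartilage markers Sox9, Col2a1 and Acan together overlapped as well, at 3441 to 11580 bp and 0 to 20045 bp. The part of bone or cartilage cells in the Trps1 values was not tested.

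Peaks over 1 kb from any annotated start site are called distal here. Trps1 had 23 distal peaks, the rank 429 among the 1735 genes tested for distal peaks. By library, its distal peaks numbered 1, 0, 3 and 5 in the mandibular process, maxillary process, medial and lateral nasal plates of e11.5. They numbered 0, 0 and 7 in the mandibular process, maxillary process and nose of e13.5, and 2, 2 and 3 in the e15.5 libraries in label order (mandibular process, maxillary process, nose). Those 3 of the e15.5 library labelled nose were all pieces of the long start-site domain, as was 1 each in the lateral nasal plate and the e15.5 library labelled maxillary process. The 11 distal regions comprised 9 in intron 4 of Trps1-202 and 2 upstream of the gene, over the annotated gene Gm48913.

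The Trps1 distal region found most often, at chr15:50696578-50699825 in intron 4, had a peak in 6 libraries. The peak measured 1580 bp in the e11.5 mandibular process, 919 bp in the medial nasal plate and 1173 bp in the lateral nasal plate. It measured 1818 bp in the e13.5 nose, and 3248 and 1395 bp in the e15.5 libraries labelled mandibular and maxillary process. A second intronic region, at chr15:50686215-50688082, was found in the medial and lateral nasal plates only, at 1868 and 990 bp. The other 7 intronic regions and 1 of the 2 upstream regions each appeared in 1 library, which for 5 of these 8 was the e13.5 nose, the longest list.

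Zfhx3 was covered by many separate peaks. Its start-site region, chr8:108694675-108719686, measured 25012 bp, lay mostly upstream of the reference start, and held the start of Zfhx3-202, 11.544 kb upstream. Peaks covered 14875 bp of it in the mandibular process of e11.5, 10381 bp in the maxillary process, and 14725 and 24522 bp in the medial and lateral nasal plates. At e13.5 they covered 9902 bp in the mandibular process, 16024 bp in the maxillary process and 23947 bp in the nose. At e15.5 they covered 20787 bp, 8027 bp and 1346 bp in the libraries labelled mandibular process, maxillary process and nose. The stages overlapped, and the highest and lowest of all 10 values came from the lateral nasal plate of e11.5 and the e15.5 library labelled nose.

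In the lateral nasal plate the region was 1 unbroken peak, the widest of the 21689 in that library, and elsewhere it fell into 2 to 5 pieces, or into a single peak of 1346 bp in the e15.5 library labelled nose. The widest Zfhx3 peak was 7515, 5375 and 5903 bp in the mandibular process, maxillary process and medial nasal plate of e11.5, 6341, 8332 and 11123 bp at e13.5, and 10300, 4372 and 1346 bp at e15.5, each in label order. In the e15.5 library labelled nose that peak ranked 4111 of 7728. Trps1 in the same library had 24672 bp under peaks, and Zfhx4 13225 bp. The 6 mesenchyme markers together had start-site peaks of 36735 bp in that library, with 5 present, against 47190 to 62803 bp in the other 9, and the part of this in the Zfhx3 value was not tested. The Zfhx3-202 start, at 108703100, was under a peak in 8 libraries, not in those labelled maxillary process and nose at e15.5. The 4372 bp peak of that labelled maxillary process began at 108703421, within 1 kb of this start. The distant Zfhx3-204 start, at 107942644, was itself under a peak only in the lateral nasal plate, of 3174 bp. A peak of 368 bp in the e11.5 mandibular process began at 107942707, within 1 kb of it. Cut to 6571 peaks a library, the covered length fell in 5 libraries, to 5344 bp in the medial nasal plate, 8332 bp in the e13.5 maxillary process, 20076 bp in the e13.5 nose, and 15929 and 4372 bp in the e15.5 libraries labelled mandibular and maxillary process.

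Zfhx3 had 88 distal peaks, the rank 8 among the 1735 genes tested for distal peaks. They numbered 3 in the mandibular process of e11.5, 4 in the maxillary process, and 14 and 26 in the medial and lateral nasal plates. At e13.5 they numbered 2 in the mandibular process, 2 in the maxillary process and 18 in the nose, and at e15.5 13, 5 and 1 in label order. The 4 largest numbers came from the 4 longest lists, and the part of list length in them was not tested. Of the 88, 8 were pieces of the start-site region, and the other 80 merged into 42 distal regions, 37 of them intronic, of which 25 (59.5%) appeared in 1 library, against 58.8% of all 27439 distal regions. Of the 25, the lateral nasal plate alone held 11.

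Of the 42 distal Zfhx3 regions, 30 lay before the start-site region and 12 after it. Of the 30 before it, 23 had a peak in a library of e11.5 and 6 in a library of e15.5. Of the 12 after it, 7 had a peak at e11.5 and 8 at e15.5. No peak at e11.5 was found for 28.6% of the 42 and for 42.0% of all 27439 distal regions. No peak at e15.5 was found for 66.7% and 55.0%. Without the lateral nasal plate, the numbers with a peak at e11.5 were 10 before and 3 after. This split was made after the positions had been seen and was not tested. By library, in the order mandibular process, maxillary process and then medial and lateral nasal plate or nose, the upstream regions with a peak numbered 2, 4, 9 and 20 at e11.5, 1, 1 and 11 at e13.5, and 5, 0 and 1 at e15.5. The downstream regions numbered 1, 0, 2 and 6 at e11.5, 1, 0 and 6 at e13.5, and 6, 4 and 0 at e15.5. The downstream regions thus included all 4 of the e15.5 library labelled maxillary process.

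**Figure D3:**
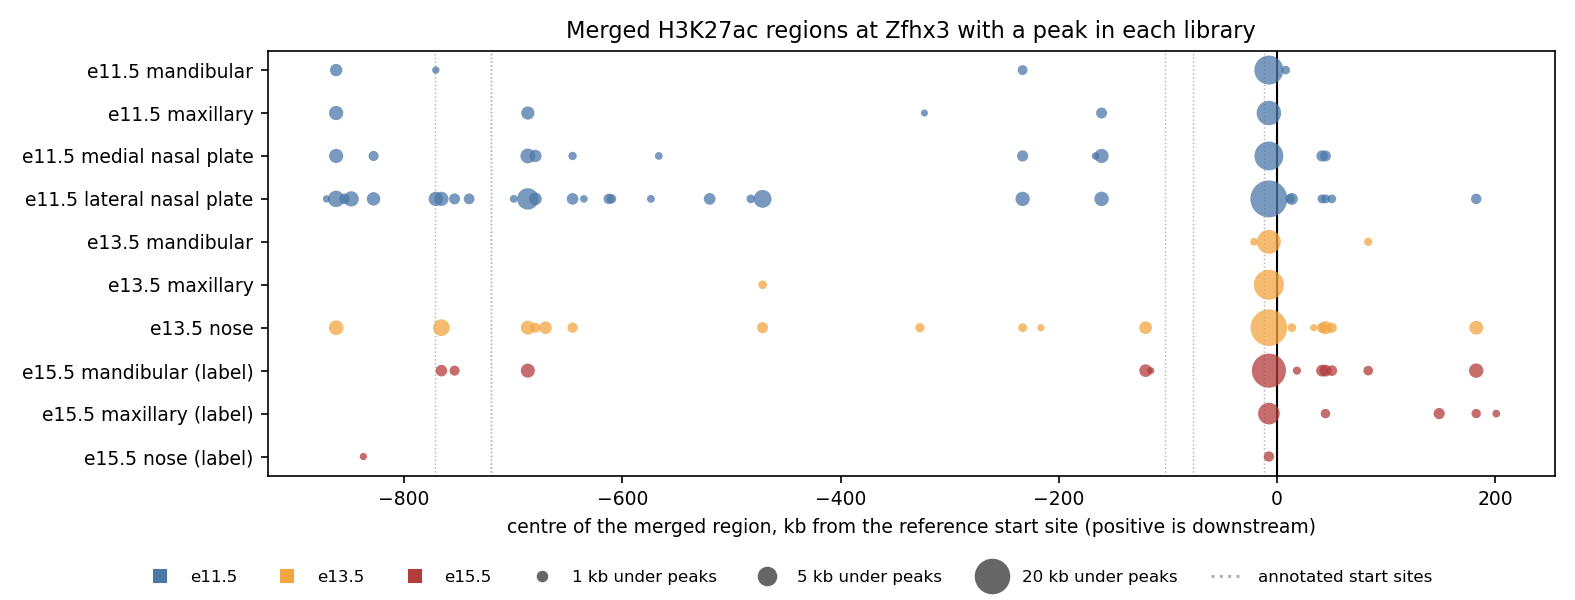
Dots mark merged H3K27ac regions at Zfhx3 that had a peak in each library, placed by the distance of their centre from the reference start site in kb, with dot area growing with the base pairs under peaks. The e11.5 lateral nasal plate and the e13.5 nose have dots in groups over the upstream span, with wide gaps between groups, and the e15.5 library labelled maxillary process has 4 distal dots, all downstream.

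Peaks at the first of the windows shown above, chr8:107850216-107854567, were present in all 4 libraries of e11.5, at 2210, 3109, 3079 and 4352 bp, and in the e13.5 nose at 3322 bp. The 3 libraries of e15.5 and the jaw processes of e13.5 had none there. The second region, chr8:108024127-108031958, had peaks in the maxillary process of e11.5 (2599 bp), the medial (3423 bp) and lateral (7832 bp) nasal plates, the e13.5 nose (2990 bp) and the e15.5 library labelled mandibular process (3020 bp). The third, chr8:108757700-108760469, had peaks of 1558 and 858 bp in the medial and lateral nasal plates, 2556 bp in the e13.5 nose, and 1956 and 1014 bp in the e15.5 libraries labelled mandibular and maxillary process. This region was thus absent from the jaw lists of both earlier stages. A region at chr8:108552243-108555430, in the body of the lincRNA gene Lncbate1, was found in 3 libraries of e11.5 only, at 1569 bp in the maxillary process and 3078 and 3188 bp in the medial and lateral nasal plates. In all, 8 of the 42 distal regions of Zfhx3 had a peak in at least 2 libraries of e11.5 and in fewer than 2 of each later stage, as had 3304 of all 27439.

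Zfhx4 had at least 9819 bp of its start-site region under peaks in each library, in 1 to 3 pieces. Its region, chr3:5208690-5229817, measured 21128 bp, held exon 1 and the first part of intron 1, and extended upstream over the antisense gene 2700069I18Rik. Peaks covered 9819, 13593, 16477 and 17566 bp in the mandibular process, maxillary process, medial and lateral nasal plates of e11.5. They covered 12509, 17177 and 20141 bp in the mandibular process, maxillary process and nose of e13.5. They covered 20881, 13945 and 13225 bp in the e15.5 libraries labelled mandibular process, maxillary process and nose. The lowest value, 9819 bp, was above each value of Trps1 at e11.5, and the ranges of the 3 stages overlapped.

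The widest Zfhx4 peak ranked 3 of 20492 in the medial and 4 of 21689 in the lateral nasal plate, and 5 of 10753 in the e13.5 maxillary process, and was in no library the widest. A single start-site peak of 10 kb or more was found for 1.06% of the 12282 genes. Zfhx4 had one in 6 libraries, which 17 genes reached, Trps1 in 5 libraries, which 27 reached, and Zfhx3 in 3, which 56 reached, and since width entered the choice of genes, nothing is read from these counts. The covered length of Zfhx4 stayed the same in 9 of 10 libraries when each list was cut to 6571 peaks.

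The distal peaks of Zfhx4 numbered 0, 3, 3 and 5 at e11.5, 0, 1 and 3 at e13.5, and 3, 1 and 0 at e15.5, in the same order of tissues. The 1 of the e13.5 maxillary process was a piece of the start-site region, and the other 18 formed 7 regions. The most frequent, chr3:5326307-5331338 over exon 4 and its flanking introns, had a peak in 6 libraries, at 1447, 1916 and 3051 bp in the maxillary process and the medial and lateral nasal plates of e11.5, 3922 bp in the e13.5 nose, and 2708 and 1521 bp in the e15.5 libraries labelled mandibular and maxillary process. The region at chr3:5202190-5205510, upstream of the gene, had a peak of 1101 to 2297 bp in 5 libraries, the same ones without that labelled maxillary process at e15.5. The e11.5 mandibular process, both jaw libraries of e13.5 and the library labelled nose at e15.5 had neither region.

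Numbers of distal peaks are not widths, though pieces of a split start-site domain count among them. Such pieces were 5 of 23 for Trps1, 8 of 88 for Zfhx3 and 1 of 19 for Zfhx4. The numbers are thus not fully separate from the widths by which the genes were chosen. Distal peak numbers were tested, as a percentage of all distal peaks of the library, in 1735 genes that had at least 10 distal peaks. A slope over embryonic day was set against all 4200 assignments of stage to libraries, and a difference between the 3 nasal and 4 jaw libraries of e11.5 and e13.5 against all 35 assignments, both exact and two-sided with Benjamini-Hochberg adjustment over the 1735 genes. After adjustment 0% of genes passed by stage and 0 by region. Without it 79 genes had a rising and 62 a falling slope with a p under 0.05. By region 336 had such a p (209 higher in nasal tissue, 127 higher in jaw). With each list cut to its 6571 peaks of lowest q-value, 11 of 387 genes had such a p by region. The nasal lists were also the longer ones, and the part of list length was not tested. The smallest p that the regional design can give is 0.0286.

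By stage, the mean Zfhx3 share was 0.164% ± 0.0580 (SD, n = 4) at e11.5, 0.120% ± 0.0140 (n = 3) at e13.5 and 0.0865% ± 0.0578 (n = 3) at e15.5. This slope of -0.0196 percentage points per day had an exact permutation p of 0.0540 and an adjusted p of 0.594 and did not pass. Falling slopes with an unadjusted p under 0.05 were found for 3.57% of the genes. The shares of single libraries were 0.101%, 0.186%, 0.137% and 0.234% at e11.5, 0.113%, 0.111% and 0.136% at e13.5, and 0.149%, 0.0742% and 0.0358% at e15.5. The lowest 2 were from e15.5, while the library labelled mandibular process of that stage lay within the range of e11.5. Exact 95% intervals, which cover counting error only, were wide, from 0.0208% to 0.294% in the e11.5 mandibular process and from 0.0507% to 0.476% in the maxillary process.

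Neither Trps1 nor Zfhx4 passed by stage. The Trps1 share averaged 0.0270% ± 0.0191 (SD, n = 4), 0.0177% ± 0.0306 (n = 3) and 0.0534% ± 0.0470 (n = 3) at the 3 stages, with a slope of 0.00612 points per day, an exact permutation p of 0.378 and an adjusted p of 0.854. That slope was -0.00327 when pieces of the start-site domain did not count as distal, and -0.000695 without the e15.5 library labelled nose, so that the Trps1 distal share had no settled direction. Of Zfhx4 the slope was -0.00945 points per day, with an exact permutation p of 0.283 and an adjusted p of 0.804.

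Between regions, the Trps1 share averaged 0.0424% ± 0.0120 (SD, n = 3) in the nasal libraries and 0.00839% ± 0.0168 (n = 4) in the jaw libraries, where 3 of 4 had no distal Trps1 peak. The difference of 0.0340 points had an exact permutation p of 0.0857 and an adjusted p of 0.275, and was 0.00675 points with each list cut to its 6571 peaks of lowest q-value. At shares of this size a jaw list of 1765 to 2978 distal peaks would hold about 1 peak, and 0 of 1765 allows a share of up to 0.209% by the exact interval. The Zfhx3 share averaged 0.169% ± 0.0561 (n = 3) in nasal and 0.128% ± 0.0393 (n = 4) in jaw libraries, a difference of 0.0411 points with an exact permutation p of 0.371 and an adjusted p of 0.656. Without the lateral nasal plate that difference was 0.00877 points, with an exact permutation p of 0.933, and with only peaks of −log10 q of at least 2 it was 0.146 points, with an exact permutation p of 0.0286 and an adjusted p of 0.111. For Zfhx4 the difference was -0.0164 points, with an exact permutation p of 0.8286 and an adjusted p of 0.955. An unadjusted p under 0.05 was reached between regions by 19.4% of the genes and by none of these 3. With each list cut to its 6571 peaks of lowest q-value, 11 of 387 genes reached it.

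**Figure D4:**
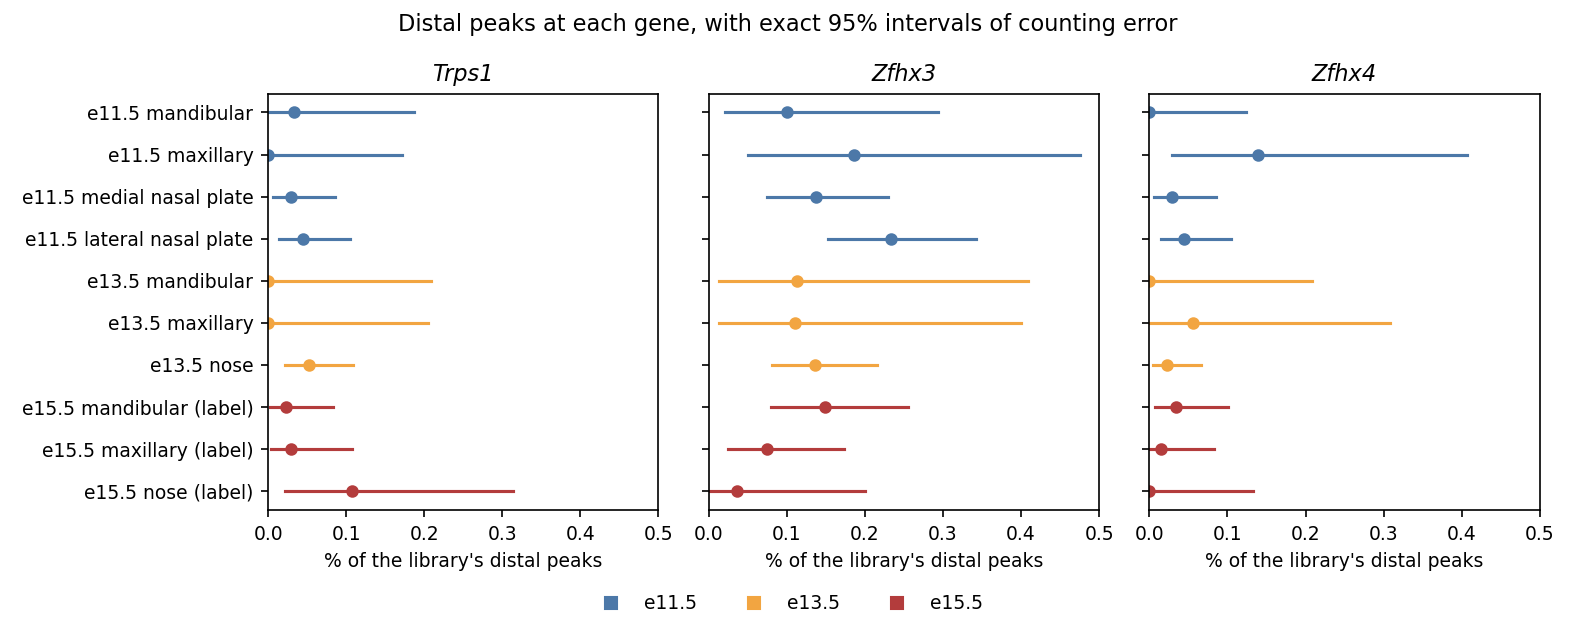
Points give the percentage of each library's distal peaks that lay at each gene and lines the exact 95% interval of counting error, coloured by stage. For Zfhx3 the points run from 0.234% in the e11.5 lateral nasal plate to 0.0358% in the e15.5 library labelled nose with overlapping intervals, and Trps1 and Zfhx4 stay under 0.15% in all libraries.

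Of the other zinc finger homeobox genes, all 12 carried a start-site peak in at least 1 library, against 56% of all genes, and 3 in all 10, near the 23.2% above, and 1, Zeb2, reached 10 kb. Among the 4 of them with most distal peaks, Tshz2 (24), a teashirt gene, had no start-site peak at e11.5 and one of up to 3881 bp at e15.5, and Zhx2 (19) went from at most 2012 bp at e11.5 to 3822 to 5824 bp at e15.5. Adnp (18), a chromatin regulator, stayed between 2377 and 3124 bp at these stages, and Zeb1 (12), a repressor of epithelial genes, had up to 999 bp at e11.5 and up to 2129 bp at e15.5. Of the 4 tested here, the 2 tested of the GATA type and the 7 tested of the partners below, 0 passed after adjustment, and without it 1, 1 and 1 differed by region and 0, 0 and 1 by stage, where 19.4% and 8.13% of all genes tested did. Zeb2, named after its values were seen, measured 3934 to 7119 bp at e11.5 and 15222 to 16073 bp at e15.5.

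Of the GATA-type genes, 9 of 14 had a start-site peak, near the 56% of all genes, and Gata1, Gata4, Gata5, Gata6 and Zglp1, named after their values were seen, had none in any library. Rere (44 distal peaks) and Gatad2a (12), both parts of repressor complexes, had start-site peaks of at most 4089 and 2710 bp. With 2 distal peaks each, Gatad2b reached 2676 bp, and Gata2, a factor of blood and ear development, reached 14975 bp in the e13.5 nose. Among partners and targets of these factors, 13 of 14 had a start-site peak, against 56% of all genes, and Ihh, the Indian hedgehog gene, had none. The 4 with most distal peaks were Sox5 (45) and Runx2 (34), regulators of cartilage and bone, Sp7 (25), a bone factor, and Hdac4 (21), a histone deacetylase. The start-site peak of Sox5 measured 327 to 3835 bp at e11.5 and 0 to 15601 bp at e15.5, with the highest value in the library labelled mandibular process. The median of the widest start-site peak was 3265 bp for the zinc finger homeobox genes, 2481 bp for the GATA-type genes and 5665 bp for partners and targets. Over all genes with such a peak it was 2244.5 bp. The list medians count the 5 GATA-type genes and the 1 partner without such a peak as 0 bp. The 2244.5 bp leaves such genes out, so the GATA-type and partner medians are not directly comparable with it.

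Of the flanking protein-coding genes, 3 had no start-site peak in any library. These were Csmd3, 1863 kb from Trps1, Hnf4g, 1560 kb from Zfhx4, and Pmfbp1, 532 kb from Zfhx3. Eif3h, a translation initiation factor gene 896 kb from Trps1, had one in 5 libraries, Psmd7, a proteasome gene 354 kb from Zfhx3, in 6, and Pex2, a peroxisome gene 144 kb from Zfhx4, in all 10, at 1868 to 3801 bp. Around Trps1 and Zfhx3, 19 peaks each had the gene as nearest but lay beyond the 100 kb reach, the closest at 106 and 112 kb, and 1 such peak lay at 128 kb from Zfhx4. The farthest peaks inside the reach lay at 79.974, 98.9 and 87.3 kb from Trps1, Zfhx3 and Zfhx4.

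Among 622 genes with at least 20 distal peaks, the distal shares most like those of Zfhx3 over the 10 libraries were those of Sox5 (Pearson r = 0.82), Alx4 (0.81) and Prdm16 (0.80). For Trps1 they were Vps13d (0.91), Tnfaip8 (0.88) and Litaf (0.88), and for Zfhx4 Sipa1l1 (0.94), Ndst1 (0.90) and Il17rd (0.88). The points share libraries and list lengths, most rest on a few peaks a library, and the Trps1 values include pieces of its start-site domain. Sox5 and Zfhx3 had their highest shares, 0.117% and 0.234%, in the lateral nasal plate. Sox5 had 0 in the e15.5 library labelled nose, where Zfhx3 had its lowest share. Sox5 also had 0 in the e13.5 mandibular and maxillary processes, where Zfhx3 had 0.113% and 0.111%.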

How the data were processed

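H3K27ac ChIP-seq was done on crosslinked and sonicated face tissue. Per the submitters' processing notes, reads were processed with MACS2 2.2.4, SAMtools 0.1.19 and BWA 0.7.7 on the build mm10, and the deposited files are broad peak lists, called by the authors per sample. For each peak the authors deposited a score, a fold enrichment (a ratio over background), and −log10 of the p-value and q-value, all set within a library. The −log10 q served for ranking and filtering inside a list, and no list held a −log10 q under 1.30. A region without a peak may still hold signal. Input libraries were not analysed here.

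Of 144896 peaks, 144852 lay on the autosomes or on X or Y and were used. Start sites came from GENCODE vM21, peaks over 1 kb from all of them were distal, and overlapping or touching peaks formed 42346 merged regions, as bedtools 2.31.1 does. Shares have Clopper-Pearson 95% intervals. Consensus letters were searched on both strands, NFI as TTGGC and GCCAA 5 bases apart. The rule for named genes took the 3 genes, their flanking protein-coding genes, up to 4 genes of each list by most distal peaks, and the 3 genes of highest Pearson r in distal share. The genes, lists and tests were chosen with earlier results of these data known. Each stage and tissue had 1 library, with shared or separate embryos not stated, so p-values measure the spread between these libraries. The tests were also run on simulated independent counts with the totals of the real libraries. Such counts hold no spread between libraries beyond counting error and the changes put in, so they do not check the tests for such spread. Computations ran in Python 3.11.15 with pandas 2.3.3, numpy 2.4.6, matplotlib 3.10.9 and scipy 1.17.1.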

Additional observations from a re-analysis of the deposited data

How the results depend on the processing

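No gene passed after adjustment under any alternative run, neither Trps1, Zfhx3 and Zfhx4 nor the others. Without 1 library the regional comparison has 20 or 15 assignments, where the smallest exact p is 0.1 or 0.0667, so those runs could not pass and only their values can be read. The Zfhx3 slope stayed negative under all 22 alternatives, from -0.0428 points per day (equal yield, the 6571 peaks of lowest q-value in each library, unadjusted exact p of 0.0117) to -0.0117, with adjusted p from 0.295 to 0.857. The Zfhx4 slope also stayed negative under 22. The Trps1 slope turned to -0.00327 with distal set for merged regions and to -0.00465 without the 3 libraries of e15.5, both chosen after seeing the data, and without single libraries ran from -0.000695 to 0.00860. Leaving out 1 library gave slopes of -0.0267 to -0.0137 for Zfhx3 and -0.0137 to -0.00208 for Zfhx4. The nasal minus jaw difference kept its sign under all 19 alternatives for Trps1 and Zfhx3. For Trps1 it ran from 0.00675 points (equal yield, unadjusted exact p of 0.714) to 0.0443 points (with e15.5 added by its doubted labels, unadjusted exact p of 0.0143), beside 0.0340. For Zfhx3 it ran from 0.00877 points without the lateral nasal plate to 0.146 points with −log10 q of at least 2, and was 0.0132 points with e15.5 added by label. For Zfhx4 it turned to 0.0384 with −log10 q of at least 2 (adjusted exact permutation p of 0.111, the range over alternatives being 0.111 to 1), to 0.00808 in base pairs and to 0.00602 with peaks of at least 500 bp, and ran from -0.0327 to 0.0138 without single libraries. The cause was not tested. With −log10 q of at least 2, regions at Trps1 went from 12 to 7, at Zfhx3 from 45 to 21 and at Zfhx4 from 8 to 5. No paired analysis was possible because the replicate numbers tie no libraries together, each stage and tissue having 1 library. Fits with a block, which leave out e15.5 and were chosen after seeing the data, have 18 assignments and a smallest exact p of 0.0556, so they could not pass either. With stage as a block the nasal minus jaw difference was 0.0334 points for Trps1, 0.0348 for Zfhx3 and -0.0216 for Zfhx4. With nasal or jaw as a block the slope was -0.00186 points per day for Trps1, -0.0192 for Zfhx3 and -0.0155 for Zfhx4.

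List length limits what can be read from absence: the jaw libraries of e11.5 and e13.5 held 1765 to 2978 distal peaks and the nasal ones 10231 to 13207, and a weak region can be missed in the short lists.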
